A study of Mus musculus with 16 samples.

Results

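Il33 encodes interleukin 33, and the values here are its row in the gene count table, 1 of 52997 gene symbols, read in each of 16 libraries and set beside the genes whose counts went with it. The libraries come from muscle mesenchymal stromal cells (mSC), fibroblast-like cells of the tissue between muscle fibres, which were sorted from hindlimb skeletal muscle of C57BL/6 mice aged 8 weeks. Each library holds the polyadenylated RNA of 1000 double-sorted cells. The 4 groups are cells taken 4 h after an intraperitoneal dose of CGRP, 4 h after PBS, 8 h after CGRP and 8 h after PBS, with 4 biological replicates in each. CGRP (calcitonin gene-related peptide) is a neuropeptide of sensory nerve endings, and PBS (phosphate-buffered saline) is its vehicle. No group carries a transgene or a deletion. The sources used here do not give the dose, the sorting gate, the collection days or the number of mice behind each replicate.

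Interleukin 33 is a cytokine of the IL-1 family that is kept in the nucleus, bound to chromatin, and acts as an alarm signal once a cell is damaged or releases it. It is read by ST2 (gene Il1rl1), which pairs with the IL-1 receptor accessory protein (Il1rap) and signals through MyD88, IRAK kinases and NF-kB. In skeletal muscle, stromal cells are a known source, and regulatory T cells and innate lymphoid cells that carry ST2 respond to it. CGRP acts through the receptor chain Calcrl paired with Ramp1, which raises cyclic AMP.

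Il33 (ENSMUSG00000024810.16) lies on the forward strand of mm10 at chr19:29925114-29960718 and spans 35605 bp, and no other annotated gene overlaps it. GENCODE M21 lists 5 coding transcripts, of which Il33-202 starts at 29925114 and Il33-201 at 29945790, each with 8 exons. RefSeq has 2 start sites for the gene, 20.7 kb apart, and counts summed over the gene cannot say which one was used. The sequences before both are shown because the level of the gene is what these data measure. They come from RefSeq (GRCm38.p6, the mm10 assembly, forward strand), at chr19:29924863-29925122 and chr19:29945540-29945799, with the 250 bases before the start in lower case and the first 10 transcribed bases in capitals.

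Upstream start: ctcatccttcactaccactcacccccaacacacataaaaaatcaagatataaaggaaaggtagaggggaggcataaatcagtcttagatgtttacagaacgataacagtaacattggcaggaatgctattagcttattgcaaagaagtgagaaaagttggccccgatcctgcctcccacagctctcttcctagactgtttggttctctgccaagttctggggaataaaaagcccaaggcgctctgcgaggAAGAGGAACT

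Downstream start: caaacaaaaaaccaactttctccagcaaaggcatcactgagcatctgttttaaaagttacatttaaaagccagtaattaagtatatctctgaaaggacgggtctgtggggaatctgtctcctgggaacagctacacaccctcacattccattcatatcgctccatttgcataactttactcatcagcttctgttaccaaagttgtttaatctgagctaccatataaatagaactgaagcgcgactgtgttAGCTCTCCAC

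Windows of 300 bases, 250 before and 50 after each start, were searched on both strands. Neither held the cyclic AMP response element TGACGTCA, its half-site TGACG (which the full element contains), the AP-1 motif TGANTCA or the NF-kB motif (GGG and, 2 bases on, TTTCC). Of 32851 mouse promoter windows of the same length, 1.79%, 20.8%, 7.81% and 1.63% hold these motifs in that order. TATAAA, held by 13.6% of windows, was found once in each, 203 bases before the upstream start and 29 bases before the downstream one. These matches describe the letters of the windows only.

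The gene totals were 7547621 to 9569539 counts in the CGRP 4 h libraries, 7161311 to 10011920 in PBS 4 h, 6373713 to 9600027 in CGRP 8 h and 6745884 to 7883491 in PBS 8 h. The number of genes with a count was 23294 to 25579 in CGRP 4 h replicate 3, PBS 4 h replicate 4, PBS 8 h replicate 1 and PBS 8 h replicate 4, while the remaining 12 libraries had 21138 to 22341. Replicates 1 to 3 of PBS 8 h gave 1.77% to 2.45% of their counts to an unnamed gene model, Gm10800, and the remaining 13 libraries 0.536% to 1.01%. The stromal label fitted its markers: 17 mesenchymal genes such as Gsn and Col3a1 summed to 150816 to 201603 CPM (counts scaled by the TMM method to a common depth). Epithelial, lymphocyte and macrophage genes summed to at most 13.1 CPM in any library. Markers of satellite cells summed to 56.2 to 127 CPM (mostly Vcam1, with Myf5 at 0 counts throughout), of myofibres to 83.3 to 227 CPM, of endothelium to 79.8 to 145 CPM and of mural cells to 32.2 to 173 CPM.

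Il33 was among the more abundant genes of these cells. It ranked 347th of 13949 tested genes by mean level and had 856 to 7138 counts per library, so that counting error alone was 1.18% to 3.42% of its value. In the CGRP 4 h libraries it stood at 442, 632, 763 and 949 CPM. In PBS 4 h it stood at 157, 219, 350 and 194 CPM. All 4 CGRP libraries at 4 h lay above every PBS library of that time, and the groups did not overlap. In CGRP 8 h it stood at 376, 199, 188 and 375 CPM. In PBS 8 h it stood at 177, 125, 241 and 266 CPM. At 8 h, CGRP replicates 1 and 4 lay above every PBS library while replicates 2 and 3 lay within the PBS range, so those groups overlapped.

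**Figure D1:**
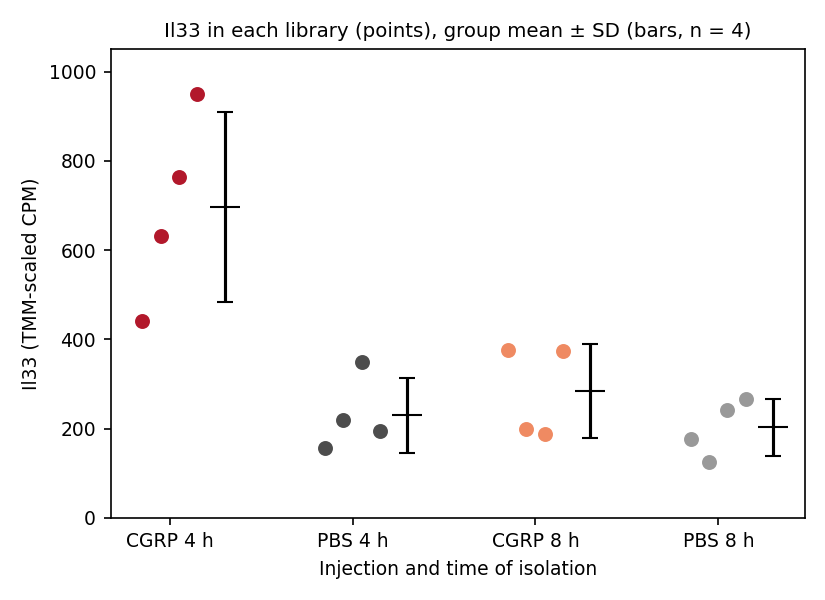
Il33 level in TMM-scaled CPM (vertical axis) in each of 16 libraries (points) by injection and time of isolation, with bars for the group mean ± SD (n = 4). The CGRP 4 h libraries sit between 442 and 949 CPM, above the 12 others, which sit between 125 and 376 CPM.

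At 4 h Il33 rose after CGRP. Its 3.03-fold difference had a 95% confidence interval of 1.78 to 5.15, with an adjusted p of 0.00863 by edgeR's quasi-likelihood test and Benjamini-Hochberg adjustment over all 13949 genes tested. That log2 fold change, 1.60 ± 0.35 (SE), was the 100th highest of all tested genes and the 76th among those called higher, while by p the gene ranked 1047th. At this time 16.2% of genes were called in either direction at an adjusted p under 0.05, and 7.84% were called higher. Without any 1 library the log2 fold change was 1.42 to 1.89 and the adjusted p 0.00598 to 0.0317. Without the 4 libraries with the most genes detected it was 1.48 with an adjusted p of 0.0758, so the call was lost. That setting takes out CGRP 4 h replicate 3, PBS 4 h replicate 4 and PBS 8 h replicates 1 and 4. The part of those libraries in a lost call cannot be told apart from that of having fewer replicates.

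At 8 h the means were 284 ± 105 CPM after CGRP and 202 ± 63.7 CPM after PBS (SD, n = 4 each). The fold was 1.40 with a 95% interval of 0.831 to 2.37, and the adjusted p was 0.460 (edgeR quasi-likelihood test). At this time 8.67% of genes were called. Permuting the 8 libraries exactly, two-sided, gave p = 0.229. The interval holds both a 2.37-fold excess and a small deficit. In simulated data with known changes in genes drawn at random, 31.3% of 1.5-fold and 65.7% of 2-fold differences were recovered in this comparison. These shares are not those of Il33, whose fitted biological coefficient of variation was 33.6%. The median was 10.5% over the 1000 genes nearest in abundance.

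Subtracting the 4 h effect from the 8 h effect left -1.11 ± 0.49 on the log2 scale, with a 95% interval of -2.18 to -0.04. Its p was 0.0428 before and 0.324 after adjustment by edgeR, so a difference between the times was not called, and 1.12% of genes were called in that contrast. Averaged over both times, CGRP libraries had 2.06-fold more Il33 than PBS libraries (95% interval 1.42 to 2.99, edgeR adjusted p = 0.00909), beside 21.6% of genes called. That call was lost without the 4 libraries with the most genes detected (log2 value 1.06, edgeR adjusted p = 0.0760). Without PBS 8 h replicates 1 to 3, the libraries rich in Gm10800, the log2 value was 0.86. That setting leaves only replicate 4 in the PBS 8 h group, so no call is given for it.

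Among mice given CGRP, Il33 was lower at 8 h than at 4 h. The 8 h libraries spanned 188 to 376 CPM and the 4 h libraries 442 to 949 CPM, with no overlap. The 8 h level was 0.408 times the 4 h level (95% interval 0.241 to 0.691, edgeR adjusted p = 0.0437), and 7.26% of genes were called. This call was marginal: 11 of 17 other settings ended it, with adjusted p up to 0.145, although the log2 value stayed between -1.46 and -1.10. Among the single libraries left out, the call held only without CGRP 4 h replicate 1 and was lost without CGRP 4 h replicates 2, 3 or 4 or any CGRP 8 h replicate. After PBS the 8 h and 4 h libraries overlapped at 202 ± 63.7 and 230 ± 83.8 CPM (log2 fold change -0.18 ± 0.35, edgeR adjusted p = 0.888), with 0.516% of genes called.

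**Figure D2:**
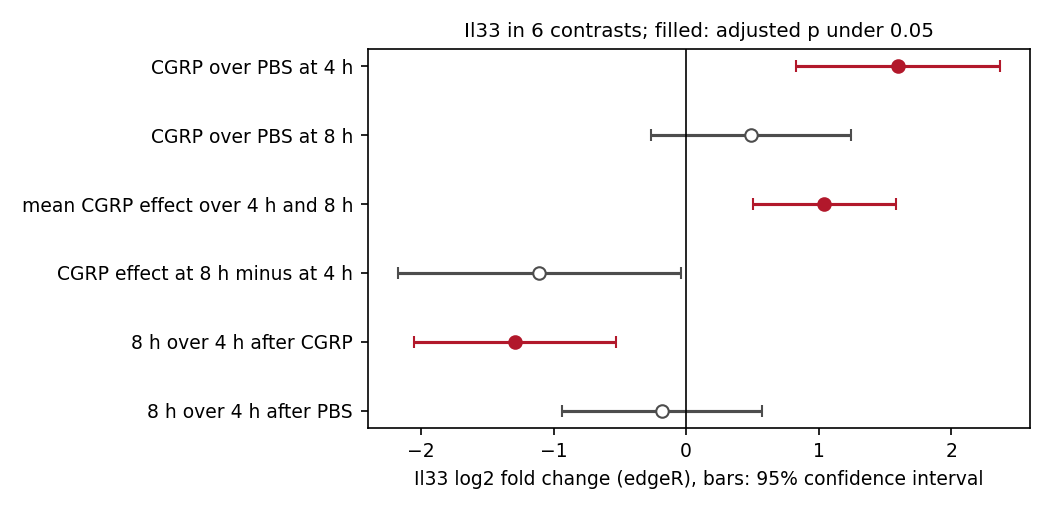
Il33 log2 fold change (horizontal axis) in 6 contrasts of the edgeR fit, with bars for the 95% confidence interval and filled points for an adjusted p under 0.05. The CGRP effect is 1.60 at 4 h and 0.49 at 8 h, and the intervals of both the 8 h effect and the time effect after PBS cross 0.

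By mean level the order was CGRP 4 h at 697 CPM, CGRP 8 h at 284 CPM, PBS 4 h at 230 CPM and PBS 8 h at 202 CPM. CGRP 4 h stood clear of the next group. Neighbours below it overlapped: CGRP 8 h ran from 188 to 376 CPM and PBS 4 h from 157 to 350 CPM, while PBS 8 h ran from 125 to 266 CPM. Replicates of 1 group differed more than counting error gives. Their coefficient of variation was 30.7% in CGRP 4 h, 36.4% in PBS 4 h, 37.0% in CGRP 8 h and 31.5% in PBS 8 h, similar at both levels. The fitted biological coefficient of variation of Il33 was 33.6%, against a median of 10.5% over the 1000 genes nearest in abundance, which placed it at the 98.5th percentile of them.

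Sums of cell type markers were read in the same comparisons, beside the 16.2% of all genes called at 4 h. At that time the summed markers of mural cells, which wrap small vessels, were 32.2 to 69.1 CPM after CGRP and 71.9 to 137 CPM after PBS, and of 8 genes Cspg4 (log2 fold change -1.20) and Myh11 (-2.60) fell. The 17 mesenchymal genes summed to 155192 to 164846 CPM after CGRP and 176515 to 201603 CPM after PBS: Ly6a, Pdpn and Twist2 rose, while Pdgfra, Pdgfrb, Cd34, Dcn, Lum and Osr1 fell. Genes of a stromal subset marked by Col15a1 and Smoc2 summed to 11838 to 15732 CPM after CGRP and 16353 to 18097 CPM after PBS; of 14 tested members 2 rose and 5 fell. Sums over the subset marked by Dpp4 and Pi16 overlapped, at 6218 to 8529 CPM after CGRP and 6483 to 7416 CPM after PBS. Of its 14 genes 2 rose (Cd55 and Ly6c1) and none fell. Endothelial sums also overlapped, at 95.4 to 120 CPM after CGRP and 82.6 to 145 CPM after PBS, led by Tek. In the comparison of 8 h with 4 h after CGRP, mural genes summed to 99.7 to 133 CPM at 8 h and 32.2 to 69.1 CPM at 4 h, and macrophage genes to 6.04 to 9.48 CPM at 8 h and 10.3 to 11.97 CPM at 4 h. In that comparison, beside 7.26% of all genes called, 7 of 14 tested Dpp4 and Pi16 subset genes fell and 0 rose, and the sums overlapped at 5977 to 7152 CPM at 8 h and 6218 to 8529 CPM at 4 h. Of 14 Col15a1 and Smoc2 subset genes 4 rose and 1 fell, and of 16 tested mesenchymal genes 3 rose and 1 fell. Of 6 tested mural genes 2 rose (Cspg4 and Notch3), and of 3 tested macrophage genes 0 were called. The part of these cells and subsets in the Il33 result was not tested, and in RNA of sorted pools a change in the share of cells of a type cannot be told apart from a change in RNA per cell.

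At 8 h the sums of the 17 mesenchymal genes again did not overlap, at 150816 to 172179 CPM after CGRP and 173907 to 186523 CPM after PBS. The same was true of the endothelial sums, at 79.8 to 109 CPM after CGRP and 110 to 132 CPM after PBS. By gene, 2 of 16 tested mesenchymal genes rose and 3 fell, and 0 of 2 tested endothelial genes were called. Of all genes 8.67% were called at this time. Genes of the lymphocytes and mast cells that respond to IL-33 summed to 5.10 to 8.52 CPM after CGRP and 8.87 to 13.1 CPM after PBS at 8 h. At 4 h those sums overlapped, at 6.80 to 10.6 CPM after CGRP and 8.78 to 10.8 CPM after PBS. Of 2 tested members 0 were called at either time. Of the 20 genes on that list Il7r had 0 counts in all 4 groups, and between 2 and 7 members were at 0 in a group.

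Read per kb of exonic length, so that genes can be set beside each other, Il33 was the highest of 19 tested cytokine genes in every group. These 19 were Il33 and the tested members of a fixed list, which holds no chemokines. The chemokine Ccl11, not ranked here, averaged 885 to 952 CPM in the 4 groups, and Il33 202 to 697 CPM, both before scaling by length. It averaged 241 ± 74.1 CPM per kb in CGRP 4 h, 79.7 ± 29.0 in PBS 4 h, 98.6 ± 36.5 in CGRP 8 h and 70.2 ± 22.1 in PBS 8 h (SD, n = 4 each). The next in CGRP 4 h was Csf1, a macrophage growth factor, at 47.3 CPM per kb. The next in PBS 4 h was Tgfb3, a TGF-beta isoform, at 41.0 CPM per kb. Il18, another IL-1 family cytokine kept as a precursor, stood at 29.3 in CGRP 4 h and 27.2 in PBS 4 h on that scale. Tslp, which like IL-33 is an alarm cytokine of type 2 immunity, stood at 8.67 in CGRP 4 h and 11.01 in PBS 4 h.

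**Figure D3:**
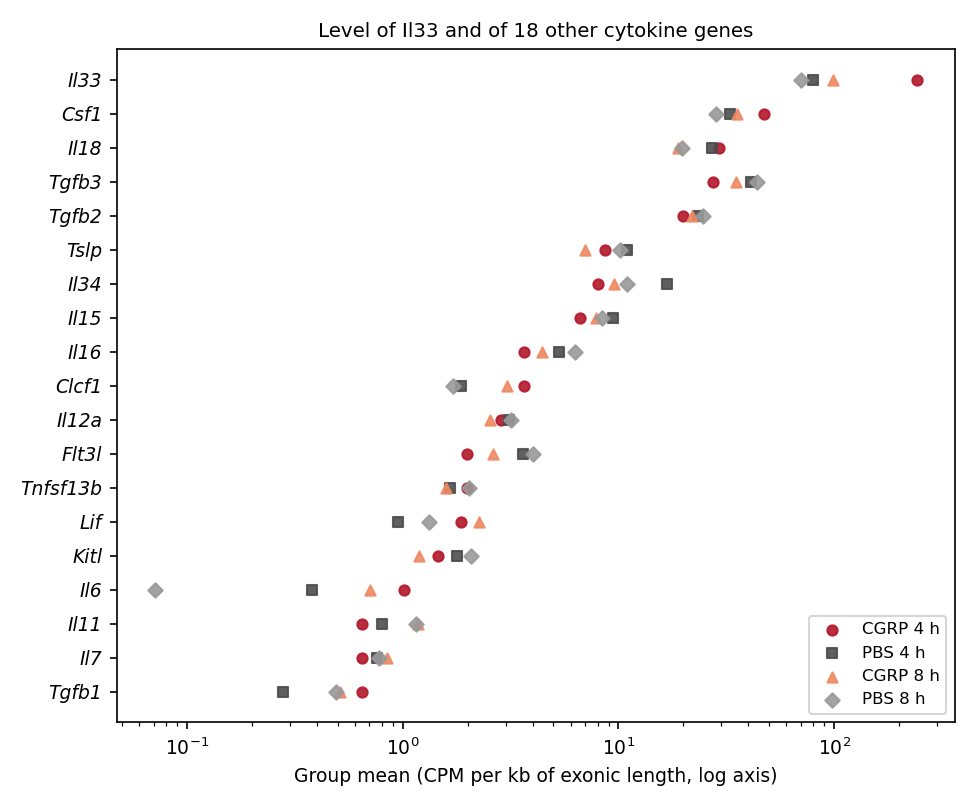
Group mean level of Il33 and of 18 other tested cytokine genes in CPM per kb of exonic length (horizontal axis, log scale), with 1 marker per group. Chemokines are not shown. Il33 is the highest of these genes in all 4 groups. Its level is 241 in CGRP 4 h, 79.7 in PBS 4 h, 98.6 in CGRP 8 h and 70.2 in PBS 8 h.

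Among the genes that receive and pass on the IL-33 signal, 24 of 25 were tested. At 4 h 2 rose (Irak3 and Nfkb1) and 1 fell (Tab3), with a median log2 fold change of 0.10 beside -0.002 over all tested genes. At 8 h Nfkb2 alone passed the test, 1 of 24 beside 8.67% of all genes, and the median was -0.02 beside -0.018 over all genes. The share called, 3 of 24 at 4 h, can be read against the 16.2% of all genes.

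Il1rl1, which encodes the ST2 receptor itself, varied widely. It stood at 3.35, 49.4, 8.80 and 34.8 CPM in CGRP 4 h, and at 0.428, 11.7, 3.87 and 24.2 CPM in PBS 4 h, where the groups overlapped. At 8 h it stood at 88.3, 38.7, 47.8 and 28.6 CPM after CGRP, and at 0.127, 12.9, 3.19 and 0.269 CPM after PBS. All 4 CGRP libraries at 8 h lay above every PBS library. Its log2 fold change there was 3.67 ± 1.15, which missed the threshold at an edgeR adjusted p of 0.0704, and at 4 h it was 1.21 ± 1.02 (adjusted p = 0.489). Averaged over both times Il1rl1 rose (2.44 ± 0.77, edgeR adjusted p = 0.0394), and refits without single libraries are not given for that call. In that contrast 3 of 24 tested members of the list rose and 1 fell, beside 21.6% of all genes called. Il1rap, the partner chain of Il1rl1, had log2 fold changes of -0.03 at 4 h and -0.45 at 8 h, with adjusted p of 0.935 and 0.158.

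Downstream of the receptor, Irak3, a brake on MyD88 signalling, stood at 215, 188, 200 and 230 CPM in CGRP 4 h and at 119, 139, 152 and 156 CPM in PBS 4 h. The groups did not overlap, and the rise was 0.55 ± 0.11 (edgeR adjusted p = 9.82e-04), held without any 1 library. At 8 h its difference was -0.003 ± 0.11. Nfkb1, the precursor of the NF-kB subunit p50, rose at 4 h (0.43 ± 0.12, adjusted p = 0.0201), and the call was lost without CGRP 4 h replicates 2 or 4 or PBS 4 h replicate 4. Tab3, an adaptor of the TAK1 kinase, fell at 4 h (-1.39 ± 0.45, adjusted p = 0.0383) at a level of 0.609 to 2.00 CPM after CGRP and 2.28 to 3.64 CPM after PBS, and 6 of 8 libraries left out ended the call. Nfkb2, of the non-canonical NF-kB arm, rose at 8 h (0.63 ± 0.19, adjusted p = 0.0403) at 66.0, 39.6, 27.1 and 51.4 CPM after CGRP and 29.3, 33.7, 26.9 and 29.3 CPM after PBS. The CGRP libraries with the most Nfkb2, replicates 1 and 4, were also those with the most Il33, and the groups overlapped through replicate 3. The Nfkb2 call was lost in 6 of 8 refits that left out a library, with limma-voom and with upper-quartile scaling. The adaptor Myd88 missed the threshold at 4 h (0.32, adjusted p = 0.0520) and at 8 h (0.34, adjusted p = 0.0632). Averaged over both times it rose (0.33, adjusted p = 0.00415), beside 21.6% of all genes called.

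Other members of the IL-1 family were few in these cells. Of 21 genes 17 were in the table and 5 were tested. Il1a, Il1b and Il1rn had at most 6 counts summed over the libraries of a group. Il18 did not pass the test at 4 h (0.11 ± 0.18) or at 8 h (-0.07 ± 0.18), with edgeR adjusted p of 0.733 and 0.879. Il1r1, the IL-1 receptor, fell at 4 h (-0.35 ± 0.10, adjusted p = 0.0142), at 53.6 to 67.0 CPM after CGRP and 74.7 to 85.2 CPM after PBS. Il1r2, the decoy receptor for IL-1, rose at 8 h (1.27 ± 0.35, adjusted p = 0.0379), at 30.0, 18.6, 38.4 and 30.4 CPM after CGRP and 17.2, 15.4, 9.57 and 6.58 CPM after PBS. The Il1r1 call was lost without CGRP 4 h replicate 1 or PBS 4 h replicate 3, and that of Il1r2 in 6 of 8 such refits. From 4 h to 8 h after PBS both Il1r2 (-1.86 ± 0.35, edgeR adjusted p = 0.0323) and Il1r1 (-0.43 ± 0.10, adjusted p = 0.0445) fell. Of all genes 0.516% were called in that contrast. After CGRP the change of Il1r2 over that time was -1.06 ± 0.32 and was not called (adjusted p = 0.0613). The list's median was 0.05 at 4 h and 0.005 at 8 h, and its 1 call of 5 at each time stands beside 16.2% and 8.67% of all genes.

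Of 21 genes that process, import or release the protein 14 were tested. At 4 h 4 fell and 0 rose, with a median of -0.16, beside 8.37% of all genes called lower. At 8 h 3 rose and 0 fell, with a median of 0.18, beside 5.00% of all genes called higher and 3.67% lower. Mlkl was the only member called at both times, and no library enters both comparisons.

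Gsdmd, the pore-forming gasdermin D, stood at 43.6, 51.3, 53.0 and 43.1 CPM in CGRP 4 h and at 72.1, 83.5, 64.2 and 83.7 CPM in PBS 4 h. The groups did not overlap, and the fall was -0.67 ± 0.11 (edgeR adjusted p = 2.76e-04). The calpain chains Capns1 (-0.40 ± 0.09, adjusted p = 0.00274) and Capn2 (-0.26 ± 0.07, adjusted p = 0.0140) fell at 4 h too; calpain can cleave IL-33 to a shorter active form. Of these calls that of Capn2 was lost without CGRP 4 h replicates 3 or 4 or PBS 4 h replicate 1, and without that last library 2 of the list were called in place of 4.

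Mlkl, the effector of necroptosis, was called in both directions. At 8 h it stood at 38.9, 28.4, 33.2 and 33.5 CPM after CGRP and 23.4, 22.3, 26.0 and 20.8 CPM after PBS. At 4 h it stood at 19.0, 21.7, 25.3 and 23.8 CPM after CGRP and 31.9, 30.3, 28.3 and 31.6 CPM after PBS. The groups were apart at both times, higher after CGRP at 8 h (0.54 ± 0.13, edgeR adjusted p = 0.0112) and lower at 4 h (-0.45 ± 0.13, adjusted p = 0.0193). The 8 h effect less the 4 h effect, 0.98, passed the test across all genes (adjusted p = 0.00693), as did the same difference for Capn2 (0.47, adjusted p = 0.0211). Ripk3, the kinase that activates MLKL, rose at 8 h (0.87 ± 0.22, adjusted p = 0.0140), and so did Kpnb1, a nuclear import receptor (0.52 ± 0.11, adjusted p = 0.00521). Leaving out CGRP 8 h replicate 1 ended the 8 h calls of Mlkl and Ripk3, and leaving out PBS 8 h replicate 4 that of Ripk3. Without the 4 libraries with the most genes detected none of the list was called at 8 h. That setting leaves only replicates 2 and 3 in the PBS 8 h group. The 4 h call of Mlkl was lost without CGRP 4 h replicates 1 or 2 or PBS 4 h replicate 1.

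Of 33 other cytokine genes of stromal cells 18 were tested. At 4 h 3 rose and 5 fell, beside 7.84% of all genes called higher and 8.37% lower, with a median of -0.23 beside -0.002 over all genes. At 8 h 0 rose and 2 fell, beside 5.00% higher and 3.67% lower, with a median of -0.14 beside -0.018. Csf1 rose at 4 h (0.52 ± 0.15, edgeR adjusted p = 0.0218), at 194, 241, 209 and 356 CPM after CGRP and 192, 146, 197 and 162 CPM after PBS. The groups overlapped through CGRP replicate 1, and CGRP replicate 4, which had the most Il33, also had the most Csf1. Clcf1 (0.97, adjusted p = 0.0218) and Lif (0.98, adjusted p = 0.0470), cytokines of the IL-6 family, rose at 4 h as well. Of these 3 calls, that of Csf1 was lost in 3 of 8 refits that left out a library, that of Clcf1 in 4 and that of Lif in 6.

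The members that fell at 4 h were the macrophage growth factor Il34, the dendritic cell growth factor Flt3l, Tgfb3, Il15 and Il16; the calls of Il15 and Il16 were each lost in 4 of 8 refits that left out a library. Flt3l stood at 9.04, 6.77, 7.41 and 7.71 CPM in CGRP 4 h and at 13.7, 14.2, 13.0 and 14.9 CPM in PBS 4 h, with no overlap. It also fell at 8 h (-0.62 ± 0.17, edgeR adjusted p = 0.0244), as did Il16 (-0.51 ± 0.15, adjusted p = 0.0402), calls lost in 5 and 7 of 8 refits that left out a library. Without PBS 4 h replicate 2 the list had 3 calls at 4 h in place of 8. Tslp missed the threshold at both times (-0.35 at 4 h and -0.54 at 8 h, adjusted p = 0.187 and 0.0614). Averaged over both times it fell (-0.44, edgeR adjusted p = 0.0123), beside 21.6% of all genes called. Il25, the third alarm cytokine of type 2 immunity, had 0 counts in every library.

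All 5 genes on the list of CGRP receptor chains were tested. Crcp, counted among them, is not a chain of the receptor. Calcrl, the chain that binds CGRP, stood at 70.9, 70.8, 82.2 and 63.8 CPM in CGRP 4 h and at 37.6, 40.0, 56.5 and 41.2 CPM in PBS 4 h, with no overlap. It rose at 4 h (0.71 ± 0.12, edgeR adjusted p = 2.55e-04, held without any 1 library), while at 8 h its difference was 0.29 ± 0.12 (adjusted p = 0.144). Ramp1, the chain that makes Calcrl a CGRP receptor, had differences of -0.16 ± 0.15 at 4 h and -0.26 ± 0.15 at 8 h, with adjusted p of 0.551 and 0.352. Ramp3, whose pairing with Calcrl favours adrenomedullin, rose at 4 h (edgeR adjusted p = 5.24e-04) and at 8 h (adjusted p = 0.0335) at a low level: it had 109 counts over the CGRP 4 h libraries and 6 over PBS 4 h, all 6 in replicate 2, and 40 over CGRP 8 h and 4 over PBS 8 h. Crcp, a cytosolic component of CGRP receptor signalling, rose at 8 h (0.50 ± 0.12, adjusted p = 0.0116). The 8 h call of Ramp3 was lost in 7 of 8 refits that left out a library, and that of Crcp without CGRP 8 h replicate 1.

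**Figure D4:**
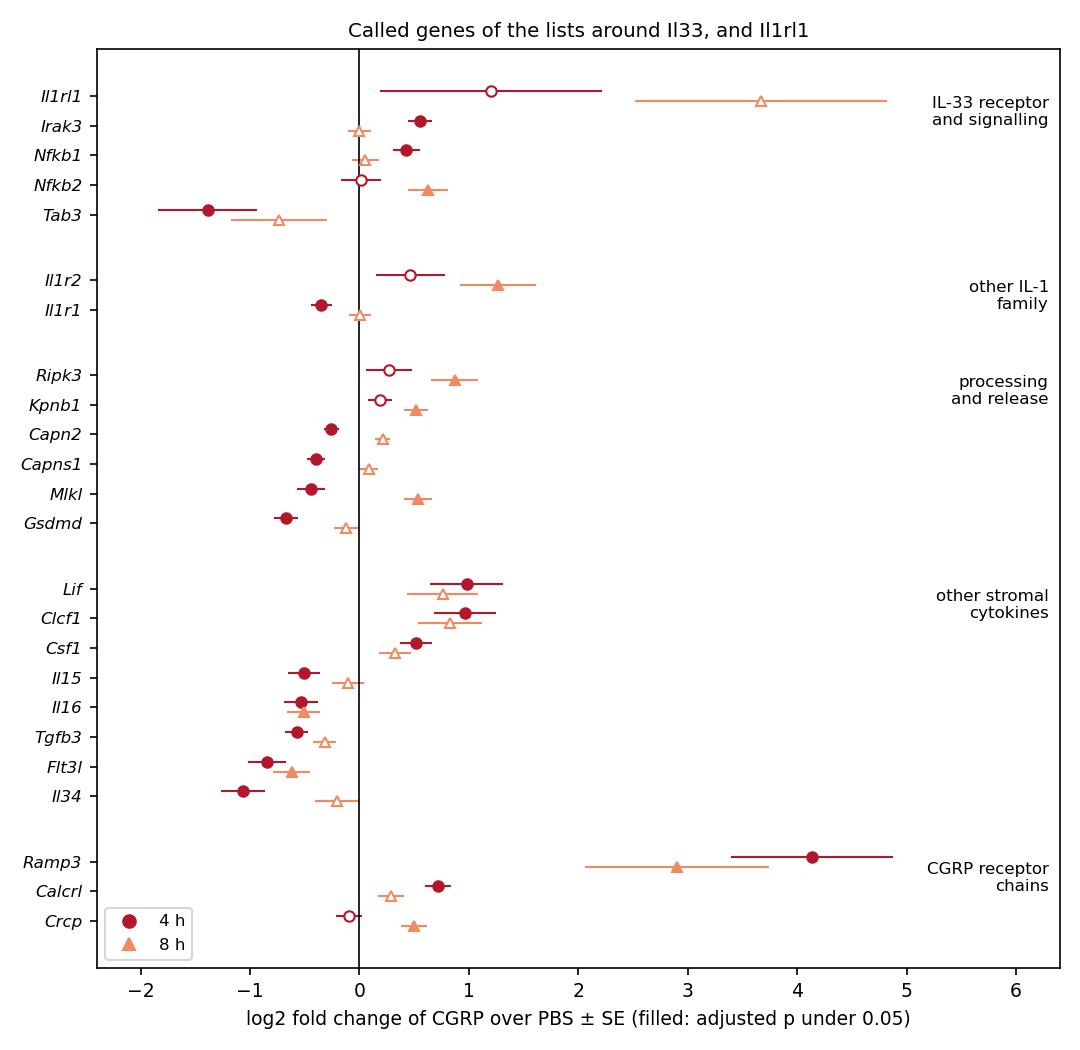
Log2 fold change of CGRP over PBS ± SE (horizontal axis) at 4 h (circles) and 8 h (triangles) for the members of 5 lists called at either time, and for Il1rl1. Filled symbols mark an edgeR adjusted p under 0.05; Mlkl is filled on both sides of 0, at 0.54 at 8 h and -0.45 at 4 h.

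The genes around Il33 on chromosome 19 were read next. Of 16 genes that start within 500 kb, 14 were in the table and 8 were tested. None was called at 4 h, beside 16.2% of all genes. The nearest tested ones were Uhrf2, a chromatin-binding ubiquitin ligase 69.8 kb away, with a log2 fold change of 0.15 (edgeR adjusted p = 0.680), and Ranbp6, an importin relative 112 kb away, with 0.17 (adjusted p = 0.625). At 8 h only Ric1, a Golgi trafficking protein 403 kb away, was called, 1 of 8 tested beside 8.67% of all genes. Ric1 fell (-0.43, edgeR adjusted p = 0.0210) at 28.7 ± 2.6 CPM after CGRP and 38.6 ± 4.6 CPM after PBS (SD, n = 4 each). Its call was lost in 5 of 8 refits that left out a library. Ric1 overlaps the antisense gene A930007I19Rik, and without strand the reads of the overlap cannot be told apart.

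To find the genes whose pattern was most like that of Il33, 9869 tested genes whose mean over the libraries reached 5 CPM were ranked by Pearson r of log2 CPM with Il33 over the 16 libraries. The genes were chosen for this likeness, so r is given as a description, and all points share their library, its depth and its scaling. In all 162 genes reached r of 0.8 and 11 reached 0.9, while 167 had r of -0.8 or below. The 10 highest were Nek6 (0.936), Cndp2 (0.931), Pus7 (0.929), Timm9 (0.925), Mt1 (0.925), Cpne8 (0.912), Isy1 (0.909), Ftsj3 (0.908), Mdn1 (0.908) and H6pd (0.907). Nek6 is a mitotic kinase, Cndp2 a dipeptidase, Pus7 an RNA pseudouridine synthase, Timm9 a mitochondrial import chaperone and Mt1 a metallothionein. Cpne8 is a copine, Isy1 a splicing factor, Ftsj3 and Mdn1 act in ribosome assembly, and H6pd is a dehydrogenase of the endoplasmic reticulum.

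Since the groups differ in Il33, a high r over 16 libraries can come from the group means alone, and the same ranking was read on deviations from the group means. On that scale r was 0.621 to 0.890 for the 10 genes, highest for Timm9 (0.890), Nek6 (0.861) and Pus7 (0.834) and lowest for Isy1 (0.621). Without CGRP 4 h replicates 4 and 3, the libraries farthest from the median of Il33, r over the other 14 libraries was 0.839 to 0.953. Pus7 shows how the replicates went together. It stood at 60.6, 64.1, 67.2 and 76.9 CPM in CGRP 4 h and at 27.9, 35.6, 41.3 and 27.7 CPM in PBS 4 h. It stood at 61.0, 37.9, 28.6 and 61.8 CPM in CGRP 8 h and at 30.3, 29.4, 30.7 and 40.4 CPM in PBS 8 h. As with Il33, CGRP 8 h replicates 1 and 4 were high and 2 and 3 low, PBS 4 h replicate 3 was the highest of its group and PBS 8 h replicate 4 of its group.

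Mt1, which binds zinc and copper, had the widest range of the 10. It stood at 988, 1227, 1351 and 1759 CPM in CGRP 4 h and at 211, 225, 493 and 306 CPM in PBS 4 h. It stood at 357, 250, 248 and 421 CPM in CGRP 8 h and at 174, 169, 193 and 161 CPM in PBS 8 h. Its order of replicates in CGRP 4 h and the high PBS 4 h replicate 3 matched those of Il33. Cpne8 had little spread within groups at 4 h, at 113 to 126 CPM after CGRP and 39.9 to 46.7 CPM after PBS. All 10 genes were called higher at 4 h (edgeR), beside 7.84% of all genes, a count that the choice by likeness to Il33 favours. None of the 10 was called at 8 h, beside 5.00% of all genes called higher and 3.67% lower. The 4 h call of Timm9 was lost in 5 of 8 refits that left out a library, and that of H6pd without CGRP 4 h replicate 4.

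The lowest r belonged to Nedd4, a ubiquitin ligase (-0.945), Appl2, an endosomal adaptor (-0.934), Adamtsl5, a matrix protein (-0.933), Tns1, a focal adhesion protein (-0.928) and Add1, a membrane skeleton protein (-0.915). Nedd4 stood at 480, 500, 501 and 446 CPM in CGRP 4 h and at 664, 619, 579 and 606 CPM in PBS 4 h. It stood at 535, 626, 619 and 566 CPM in CGRP 8 h and at 651, 672, 647 and 612 CPM in PBS 8 h. Here the CGRP 4 h libraries were below all others and CGRP 8 h replicates 1 and 4 below the other pair of their group. Of the genes on the lists above, Calcrl had r of 0.885 (19th of 9869), Irak3 0.866 (39th), Gsdmd -0.864 (9821st) and Tgfb3 -0.878 (9840th), whereas Il1rl1 had 0.321.

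**Figure D5:**
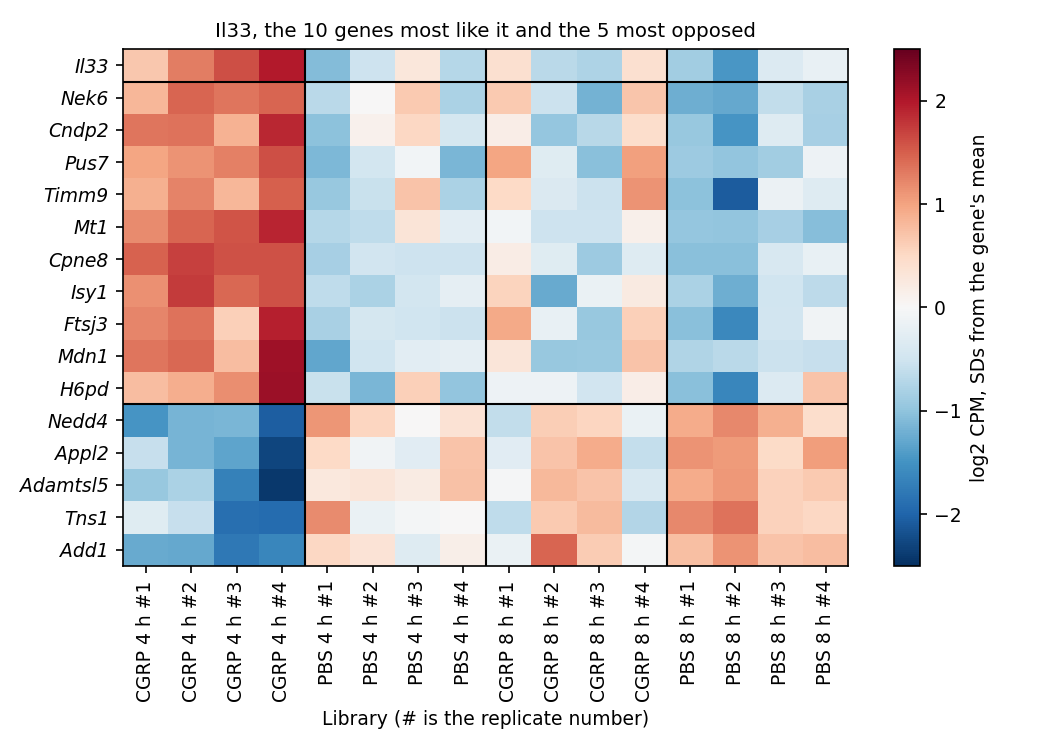
Log2 CPM of Il33, of the 10 genes most like it and of the 5 most opposed (rows), each as SDs from the gene's own mean (colour), in 16 libraries (columns). The CGRP 4 h libraries are high for the first 11 rows and low for the last 5, and CGRP 8 h replicates 1 and 4 stand apart from 2 and 3 in most rows.

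When genes were ranked on the deviations within groups alone, 11 genes reached r of 0.8, and among the highest were Ccl11 (0.897), Timm9 (0.890), Nek6 (0.861) and Brix1 (0.849). Ccl11, the chemokine eotaxin that draws eosinophils, did not share the group differences of Il33 and had r of 0.200 over the 16 libraries taken as they are. Ccl11 stood at 846, 889, 942 and 953 CPM in CGRP 4 h and at 883, 902, 983 and 943 CPM in PBS 4 h, the same order of replicates as Il33 after CGRP, with a log2 fold change of -0.03 ± 0.07 (edgeR adjusted p = 0.822). Brix1, a ribosome assembly factor, stood at 59.1, 40.4, 36.5 and 54.6 CPM in CGRP 8 h and at 33.5, 29.4, 33.6 and 32.5 CPM in PBS 8 h, again high in replicates 1 and 4 after CGRP. It rose at 8 h (0.56, adjusted p = 0.0435), a call lost in 6 of 8 refits that left out a library.

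In all 8 relations between Il33 and another measure were tested on deviations from the group means over the 16 libraries, by permutation within groups. Calcrl had r of 0.559 (permutation p = 0.0431, adjusted 0.176) and rho of 0.435 (permutation p = 0.128), and r was 0.420 without the 2 libraries farthest from its median. The summed Dpp4 and Pi16 subset had r of -0.548 (permutation p = 0.0441, adjusted 0.176) and rho of -0.521 (permutation p = 0.0656), and r was -0.528 without the 2 farthest libraries. Neither passed the adjustment over the 8 relations. The Col15a1 and Smoc2 subset (r = 0.357), the mesenchymal sum (-0.401), the endothelial sum (-0.443), the library total (-0.376), the number of genes detected (0.0474) and Ramp1 (-0.0711) had adjusted permutation p of 0.325 to 0.873.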

How the data were processed

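Polyadenylated RNA of 16 sorted cell pools was primed with oligo(dT), amplified by PCR, made into Nextera XT libraries and read as pairs of 25 bases, per the labels' protocols. The authors deposited raw read counts per gene, made with STAR 2.5.4, featureCounts and mm10, per the submitters' processing notes; the sources used here do not give the annotation, strand setting or treatment of reads with several matches. Nextera XT does not mark strand. All 16 columns were used, and replicates of a group differed beyond counting noise (chi-square 6.52 to 22.7 times its degrees of freedom over 24 pairs).

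The count model was that of edgeR 4.0.16 (R 4.3.3): filterByExpr left 13949 genes, TMM scaled the libraries, and a robust quasi-likelihood fit of the 4 group means, with 12 residual degrees of freedom, gave 6 contrasts. P-values were two-sided with Benjamini-Hochberg adjustment over every gene in the fit, and "rose" or "fell" mean an adjusted p under 0.05. SE is the fold change over the root of F. CPM are TMM-scaled, with a prior count of 0.5 for log2 CPM. Replicates were submitted as biological, but if they share mice the p-values measure less than the spread between mice. No molecular identifiers mark the PCR copies, so counting error is a lower limit.

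Positions and exonic length came from GENCODE M21 (49365 of 52997 symbols matched) and promoters from RefSeq. Named genes are Il33, the called members of 5 lists around it with Il1rl1, Il1rap, Il18, Il1r1, Tslp, Calcrl and Ramp1, the 10 highest and 5 lowest by r over 16 libraries and the 5 highest within groups, without unnamed gene models, and neighbours within 500 kb. Il33, the 17 lists and the rules were chosen with earlier results of these data known. Myd88, Il25, Il1a, Il1b, Il1rn and the marker genes are named outside that rule, after their values were seen. Results for 2 genes that the lists or rankings would name are not reported, nor are they part of the list counts. In simulated data for the 4 h comparison (13712 genes) the fit recovered 34.3% of the 1.5-fold, 70.1% of the 2-fold and 84.8% of the 4-fold differences, with 7.35% false calls. The changed genes were drawn at random and kept their own spread, so these shares are not those of Il33. Alternatives were DESeq2 1.42.0, limma 3.58.1 with voom, RLE and upper-quartile scaling, no filter, no robust step, fits to the 2 groups compared, a replicate block and libraries left out. Over 24 pairs with the same replicate number across groups the deviations correlated at -0.0791 to 0.0919. The numbers were not taken as pairs, but 8 of 16 libraries correlated best with a library of their own number. No range is given for pairs of different numbers, so these values cannot decide whether replicates were paired.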

Additional observations from a re-analysis of the deposited data

Results flagged for a closer look

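Il33 itself had no library outside its group by Dixon's 95% criterion. Of 216 groups looked at for 54 named genes, 9 held a library far from the other 3, where chance gives about 1 in 20. Ramp3 was at 0.624 CPM in PBS 4 h replicate 2 and at 0 in the other 3 libraries. Il18 was at 20.2 CPM in PBS 4 h replicate 2, the others at 30.2 to 31.2. Pus7 was at 40.4 CPM in PBS 8 h replicate 4, the others at 29.4 to 30.7. Cpne8 was at 39.9 CPM in PBS 4 h replicate 1, the others at 46.0 to 46.7. Appl2 was at 83.2 CPM in PBS 8 h replicate 3, the others at 94.5 to 95.9. Tns1 was at 369 CPM in PBS 4 h replicate 1, the others at 312 to 318. Add1 was at 258 CPM in PBS 8 h replicate 2, the others at 242 to 244. The neighbours Mlana and Gldc were at 1.77 CPM in CGRP 8 h replicate 3 (the others at 0.303 to 0.539) and at 3.85 CPM in PBS 4 h replicate 1 (the others at 1.66 to 1.81).

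The CGRP effect differed between 8 h and 4 h by the edgeR test of the difference for 3 named genes. It was 0.21 at 8 h and -0.26 at 4 h for Capn2 (difference 0.47, adjusted p = 0.0211), 0.54 at 8 h and -0.45 at 4 h for Mlkl (0.98, adjusted p = 0.00693), and 0.22 at 8 h and 1.41 at 4 h for Cpne8 (-1.20, adjusted p = 0.00155).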

How the results depend on the processing

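The 4 h rise of Il33 stayed called in 16 of 17 other settings (log2 value 1.42 to 1.89), DESeq2 and voom included; leaving out single libraries gave 1.42 to 1.89, and leaving out the 4 libraries with the most genes detected gave 1.48 (adjusted p = 0.0758). The 8 h effect stayed positive and uncalled (0.11 to 0.66; single libraries left out 0.33 to 0.66), and the 8 h effect less the 4 h effect stayed uncalled (-1.50 to -0.84; -1.38 to -0.92). The mean effect lost its call without the 4 libraries (1.06), and ran from 0.96 to 1.19 without single libraries. It was 0.86 without the 3 PBS 8 h libraries rich in Gm10800. That setting was chosen after seeing the data and leaves 1 library in the PBS 8 h group. The change of 8 h over 4 h after CGRP lost its call with no filter (-1.28), with the libraries of the 2 groups alone (-1.29), with a replicate block (-1.26), without the 4 libraries (-1.24), and in 7 of 8 fits without 1 library (-1.46 to -1.10). The change after PBS reversed without PBS 4 h replicate 3 (0.095) and without the 3 PBS 8 h libraries (0.21), and ran from -0.34 to 0.095 without single libraries. Its difference of mean log2 CPM reversed without PBS 4 h replicate 3 (0.049) or PBS 8 h replicate 2 (0.039; -0.34 to 0.049). In the exact permutation test of 4 h p was 0.0571 without CGRP 4 h replicate 4 and 0.0286 with any other single library of that time left out. The smallest p this test can give is 0.0286, so it cannot grade these settings further. What same-numbered replicates shared beyond a number is not known. With the replicate block the 4 h value was 1.58 (edgeR adjusted p = 0.0115). On deviations from the group means, each library was compared with those of the other groups. Of 16 libraries 8 correlated best with a library of their own number. Each library had fewer partners with its own number than with other numbers. Whether the numbers mark shared mice or batches was not tested.

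Genes called at 4 h were 1481 to 2226 without single libraries and 2262 with all; at 8 h they were 577 to 1279, against 1210 with all, 146 without the 3 PBS 8 h libraries and 191 without the 4 libraries. Upper-quartile scaling put 45% of the 8 h calls higher, against 57.7%. Of the 10 genes most like Il33, 6 to 10 stayed among the 10 without single libraries, 6 without PBS 8 h replicates 2 or 4. Ranked by Spearman rho in place of Pearson r, 8 stayed, while Mt1 moved to rank 79.5 and Isy1 to rank 86. List counts of called members at 8 h fell to 0 in at least 1 setting for all 5 lists. Fits to the libraries of 2 groups alone cannot be made for the mean effect or the difference.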
